A study of Mus musculus with 20 samples.

Results

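The clustered protocadherins are the cell adhesion genes of the alpha (Pcdha), beta (Pcdhb) and gamma (Pcdhg) clusters, which lie side by side on mouse chromosome 18. Every gene was taken whose GRCm38 symbol opens with Pcdha, Pcdhb or Pcdhg and a subtype letter or number, and 1 pseudogene, Pcdhgb8, was left out. This gave 57 genes of the 47729 in the count table: 14 in the alpha cluster (chr18:36930184-37187661, GRCm38), 22 in the beta cluster (chr18:37264938-37524479) and 21 in the gamma cluster (chr18:37661793-37841873). The family itself was chosen by measured values, namely the differences between 24-month and 5-month mice in standard cages, so that comparison is given here as a description, and every other comparison that holds the 5mSC or 24mSC libraries shares values with the choice. The comparison of the same ages in enriched cages uses other libraries, which the choice did not use, and is tested.

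The 20 libraries were made from hippocampal RNA of male mice of the strain C57BL/6. They fall into 4 groups of 5: young mice (5 months) kept in standard cages, named 5mSC, or with enrichment, named 5mEE, and old mice (24 months) kept in standard cages, named 24mSC, or with enrichment, named 24mEE. Enriched cages were larger and held running wheels, tunnels, houses and climbing objects that were moved weekly, and the old mice of the study lived in them for the last months before RNA was taken. No transgene, drug or other treatment was used in any group, how long the 5mEE mice were enriched is not given in the sources used here, and RNA was isolated from each sample on its own.

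Clustered protocadherins are membrane proteins of neurons that pair with identical copies on touching cells and thereby give a neuron a surface identity, by which its branches recognise and avoid each other. In the alpha and gamma clusters, each variable first exon has its own promoter and is spliced to constant exons shared by the whole cluster, whereas each beta gene is a single exon that codes for a complete protein without the shared tail. Most variable genes are switched on at random from few promoters per neuron, with CTCF and cohesin looping a distant enhancer to the chosen promoter, whereas the C-type genes at the end of the alpha and gamma clusters are used by most neurons. In bulk RNA, fewer cells that use a gene and less RNA per cell cannot be told apart.

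The libraries held between 10.96 M and 34.1 M counts, of which the 57 genes took 0.0223% in the 5mSC replicate 3 and 0.0383% to 0.0613% in the others. That library stood apart: mitochondrial ribosomal RNA made up 26.8% of its counts (95% Wilson interval 26.80% to 26.85%, counting error only), against 0.883% to 1.82% elsewhere. Its alpha, beta and gamma sums, 25.4, 116 and 127 CPM (counts scaled to a common TMM-adjusted library size), were the lowest of all 20 libraries. The 5mSC replicates 1 and 3 also received the lowest quality weights in limma-voom, 0.19 and 0.078. Several results that rest on the 5mSC group are therefore given with and without both, and the others with all 20 libraries only. All 10 markers of the dentate gyrus, the part of the hippocampus that holds the granule cells, were detected in every library, among them Prox1 at 70.1 to 175 CPM.

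Of the 57 genes, 54 had enough counts to be tested, 12 alpha, 22 beta and 20 gamma. The other 3 were Pcdha4 with 1 count in total, Pcdha11 with 0 to 3 counts per library, and Pcdhga10 with 0 counts in all 20 libraries. A level of 0.0882 to 0.329 CPM, depending on the library, was the worth of 3 counts. Pcdhga10 has 0 bases of exon that no other gene shares, so its 0 counts set no limit on its level, and Pcdha4 has 404 such bases. Of the exon length of an alpha gene, 48.57% to 93% overlapped other genes, with constant exons of 2860 bases in common, and in the gamma cluster 31.47% to 100% overlapped, with constant exons of 2119 bases. Beta genes shared nothing with other genes except Pcdhb12 (63.51%), Pcdhb21 (9.671%) and Pcdhb22 (6.885%). The 0 counts of Pcdhga10, whose whole exon length is shared, show that reads in shared exons were not counted for it, and a read in the constant exons cannot be credited to 1 gene of its cluster. The stretches of exon that a gene holds alone were searched for 50-base words that recur in annotated transcripts of other genes. Up to 25.45% of the words in alpha genes, 16.75% in gamma genes and 9.519% in beta genes did, so near-identical copies could exchange or lose some reads. Sequence outside annotated transcripts was not searched.

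A few genes made up a large part of the signal in the alpha and gamma clusters, whereas the beta cluster was more even. Levels between genes are compared only as CPM per kilobase of own exon, averaged over the 20 libraries. In the alpha cluster Pcdhac2, a C-type gene known from the spacing of serotonergic axons, stood at 10.2 CPM per kilobase and took 50.7% of the cluster's counts. The next alpha genes, Pcdha12 and Pcdha9, stood at 2.68 and 1.65 CPM per kilobase. In the gamma cluster Pcdhgc5, whose protein can bind GABA-A receptors, stood at 20.0 and Pcdhgc3, a C-type gene linked to dendrite branching, at 16.4 CPM per kilobase, and Pcdhga11 followed at 9.17. Pcdhgc5 took 32.5% and Pcdhgc3 took 10.7% of the gamma counts. The beta genes with the highest levels were Pcdhb9 (6.10 CPM per kilobase), Pcdhb17 (4.09) and Pcdhb20 (3.18), and none took more than the 11.3% of Pcdhb17. With total exon length in place of own exon length, 30 ranks changed and Pcdhga11 dropped to rank 6 of its cluster, while the first 3 of the alpha and beta clusters stayed the same.

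**Figure D1:**
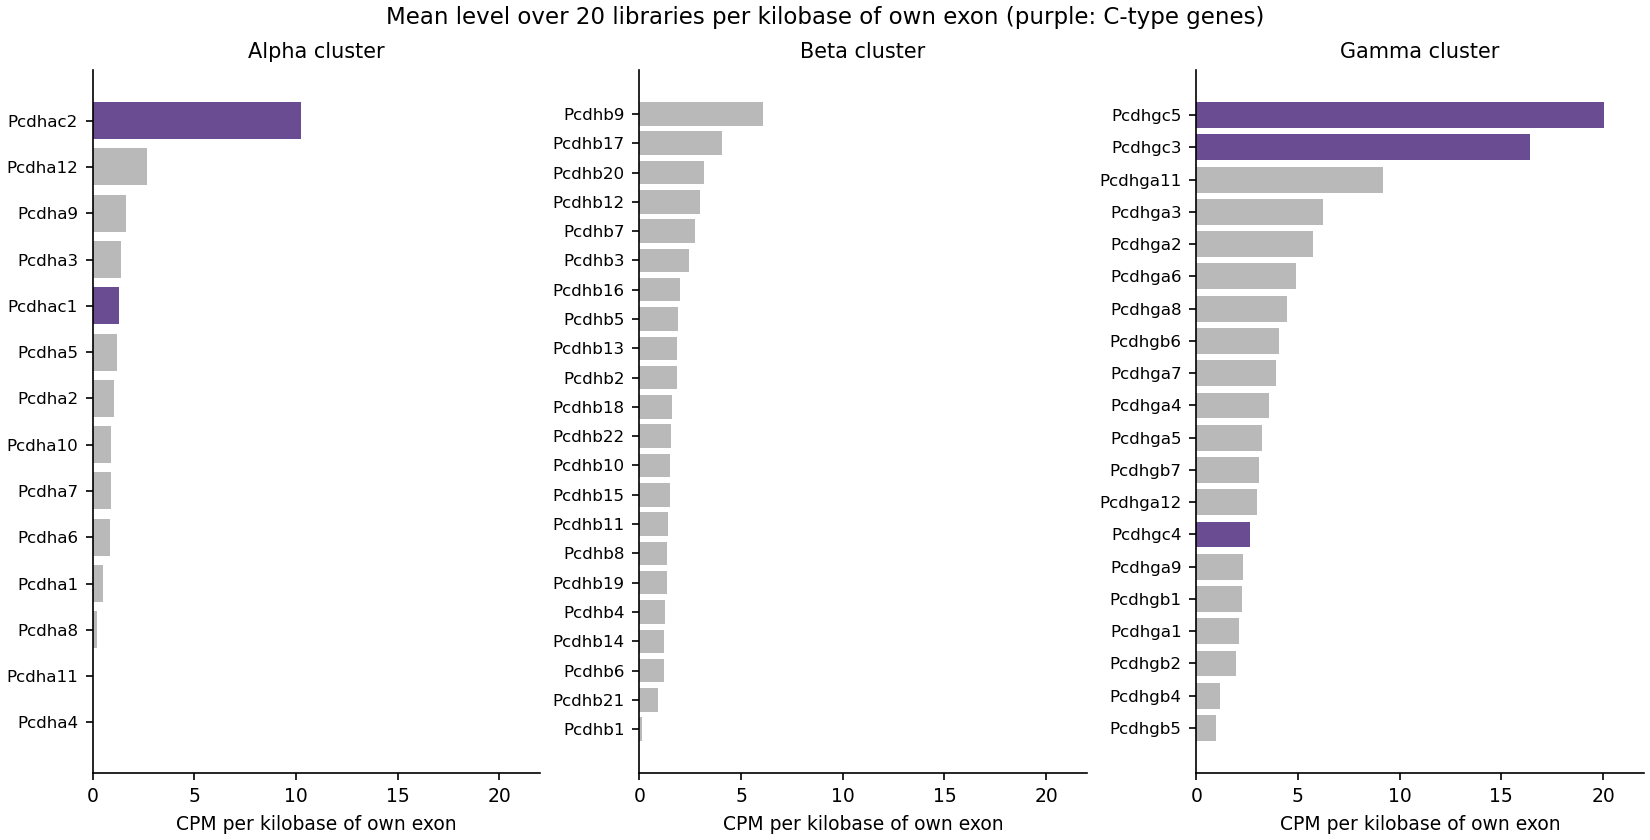
Mean level of each protocadherin gene over the 20 libraries, in CPM per kilobase of own exon, sorted within each cluster, with C-type genes in purple. Pcdhac2 (10.2) leads the alpha cluster and Pcdhgc5 (20.0) and Pcdhgc3 (16.4) the gamma cluster, whereas the beta genes fall off gradually from Pcdhb9 (6.10). Pcdhga10, which has no exon of its own, is not drawn.

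Summed over all its genes, the beta cluster was higher at 24 months than at 5 months in both kinds of cage, while the alpha and gamma sums overlapped between the ages in both. The beta sum was 159.5, 151.6, 149.3, 160.2 and 158.6 CPM in the 5mEE libraries and 188.7, 189.8, 212.8, 185.9 and 190.5 CPM in the 24mEE libraries. In standard cages it was 136, 160, 116, 145 and 140 CPM at 5 months and 204.4, 182.3, 181.6, 210.4 and 200.1 CPM at 24 months. Every old library thus stood above every young library of the same cage, with group means ± SD of 156 ± 5.03 (5mEE), 194 ± 10.9 (24mEE), 140 ± 16.001 (5mSC) and 196 ± 13.1 CPM (24mSC), n = 5 each. Without the 5mSC replicates 1 and 3 the young standard-cage mean was 148 ± 10.6 CPM (n = 3), still below all 24mSC libraries.

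The alpha sum was 66.2, 68.0, 74.0, 58.5 and 60.5 CPM in 5mEE and 67.4, 58.8, 66.0, 60.1 and 67.8 CPM in 24mEE. The gamma sum was 319, 268, 318, 272 and 311 CPM in 5mEE and 310, 268, 336, 279 and 351 CPM in 24mEE. Neither separated the ages. In standard cages the alpha means were 48.8 ± 19.1 CPM at 5 months and 62.5 ± 6.04 CPM at 24 months, and the gamma means were 234 ± 71.0 and 288 ± 30.0 CPM (n = 5 each). Without the 5mSC replicates 1 and 3 the young means were 62.0 ± 8.11 and 281 ± 24.4 CPM (n = 3), close to those of the old mice.

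The composition of the clusters was read from shares of counts, which do not depend on how libraries are scaled. The 9 genes from Pcdhb1 to Pcdhb9 held 31.1% to 33.9% of the beta counts in 5mEE and 39.3% to 40.5% in 24mEE, and the groups did not overlap. In standard cages they held 31.0% to 37.4% at 5 months and 39.7% to 41.2% at 24 months, again without overlap. This range of genes was set after the values were seen, so its share is a description. C-type genes held 45.9% to 49.7% of the gamma counts in 5mEE and 43.7% to 46.7% in 24mEE, and 56.1% to 60.9% of the alpha counts in 5mEE and 55.7% to 58.7% in 24mEE, and both pairs of ranges overlapped. In standard cages they held 45.5% to 49.6% of the gamma counts at 5 months and 43.8% to 45.7% at 24 months, and 36.2% to 61.9% and 53.3% to 56.7% of the alpha counts, again with overlap. Without the 5mSC replicates 1 and 3 the young ranges were 48.8% to 49.6% (gamma) and 58.5% to 61.9% (alpha), above those of all 24mSC libraries.

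**Figure D2:**
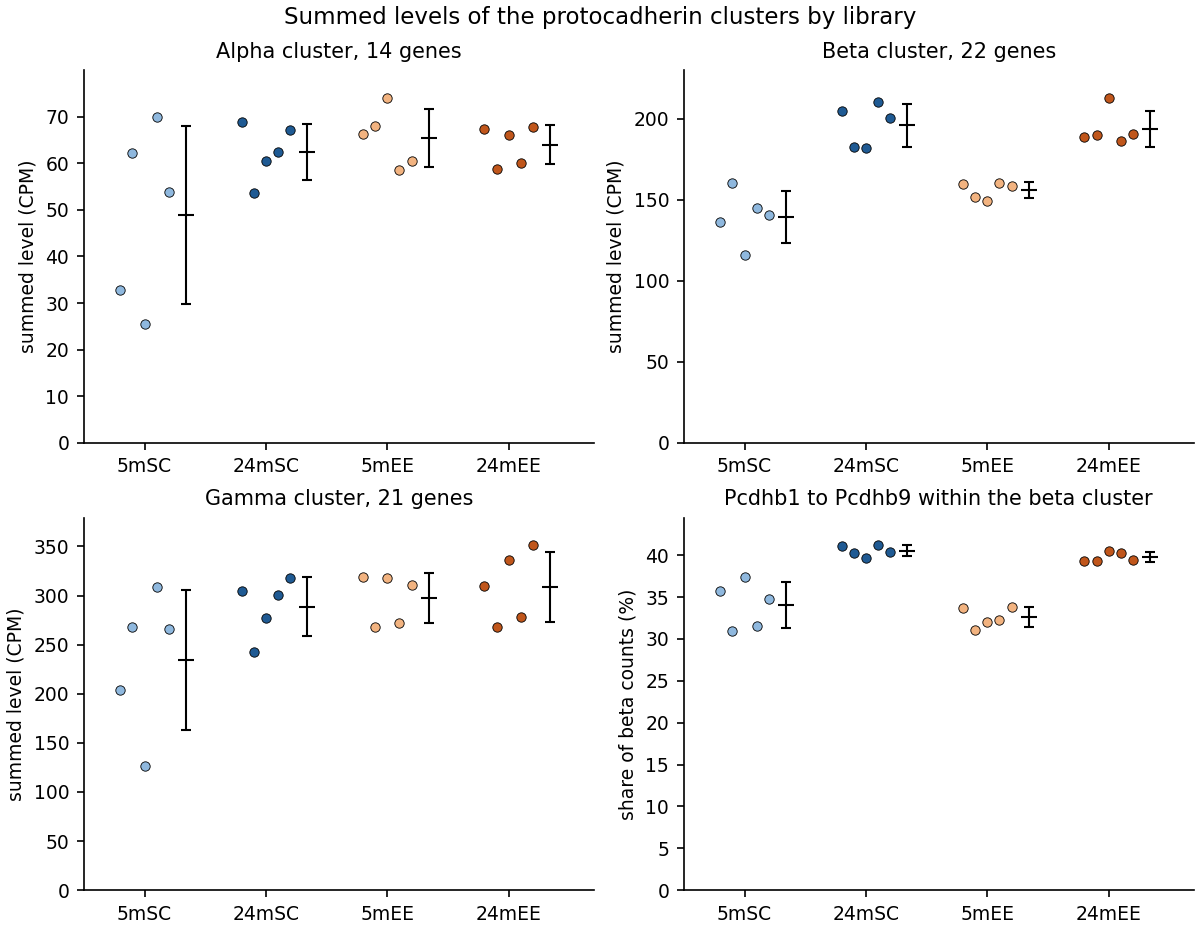
Summed level of the alpha, beta and gamma clusters (CPM) and share of the beta counts that fell on Pcdhb1 to Pcdhb9 (%), with 1 point per library and group mean ± SD beside the points. The beta sums of 24-month libraries (182 to 213 CPM) lie above those of all 5-month libraries (116 to 160 CPM), while alpha and gamma sums overlap, and 2 of the 5mSC libraries are low in all 3 sums.

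The effect of age in enriched cages was tested gene by gene with edgeR over all 16692 genes with sufficient counts, in 1 fit of the 20 libraries, and p-values were adjusted by Benjamini-Hochberg over all of them. They measure the spread between these libraries. Pcdhb9 was the only protocadherin of the clusters past an adjusted p of 0.05: it rose to 1.61-fold, with a log2 fold change of 0.69 ± 0.10 (SE, 95% interval 0.48 to 0.89, adjusted p = 0.00458). Pcdhb9 (chr18:37400855-37403909, 1 exon) was at 16.4, 12.01, 12.8, 14.5 and 14.99 CPM in 5mEE and at 23.6, 22.96, 22.7, 23.5 and 21.3 CPM in 24mEE. All 5 old libraries stood above all 5 young ones. Of all genes tested, 0.0839% were called higher and 0.024% lower, and of the clustered protocadherins 1 of 54 was called higher and 0 lower. Of the 50-base words of Pcdhb9, 8.749% recurred in other clustered protocadherins.

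Pcdhb9 passed the threshold in all 32 alternative fits, with log2 fold changes from 0.64 to 0.75 and adjusted p from 7.84e-08 to 0.0282. These included fits with the markers of neocortex, choroid plexus, all neurons or striatum as a covariate, fits without each library in turn, and fits without the 5mSC replicates 1 and 3. Other genes depended on the fit. Pcdhb6 passed in 8 of the 32, Pcdhb2 and Pcdhb3 in 5, Pcdhga6 in 3, Pcdhb12 in 2 and Pcdhga2 in 1. Leaving out the 5mSC replicate 3 alone gave 3 genes, Pcdhb2, Pcdhb6 and Pcdhb9, where 0.269% of all genes were called. Without the 5mSC replicates 1 and 3, which are not part of this comparison but enter its estimate of the spread, 5 genes passed: Pcdhb2, Pcdhb3, Pcdhb6, Pcdhb9 and Pcdhga6, beside 0.572% of all genes.

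Before adjustment, 14 of the 54 genes had p under 0.05 and a higher level at 24 months, 11 of them beta and 3 gamma, and 1 gamma gene had a lower level. Among all genes the shares were 2.71% higher and 1.9% lower. In 11 of the 54 the old libraries all stood above the young ones, against 1.63% of all genes: Pcdhb1, Pcdhb2, Pcdhb3, Pcdhb4, Pcdhb5, Pcdhb6, Pcdhb8, Pcdhb9, Pcdhb12 and Pcdhb16 of the beta cluster and Pcdhga6 of the gamma cluster. A positive log2 fold change was found for 20 of 22 beta, 10 of 20 gamma and 5 of 12 alpha genes, against 49.3% of all genes. The median log2 fold change was 0.32 for beta, 0.00 for gamma and -0.03 for alpha, beside -0.00 over all genes tested.

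Several beta genes had larger fold changes than Pcdhb9 but more spread. Pcdhb6 stood at 2.73, 2.70, 2.95, 3.62 and 3.98 CPM in 5mEE and at 5.50, 4.90, 6.75, 5.32 and 5.54 CPM in 24mEE, a log2 difference of 0.81 ± 0.18 (adjusted p = 0.113). Pcdhb2 stood at 3.79, 4.23, 4.13, 4.48 and 4.21 CPM in 5mEE and at 5.39, 6.15, 8.93, 8.24 and 7.10 CPM in 24mEE, a log2 difference of 0.78 ± 0.22 (adjusted p = 0.430). In both genes the 2 ages did not overlap. The old libraries of Pcdhb2 ran from 5.39 to 8.93 CPM, but the 5mSC libraries also enter these errors and adjusted p. In an edgeR fit without the 5mSC group, added after the values were seen, both genes had an adjusted p of 0.00644. The log2 differences there were 0.78 ± 0.12 (Pcdhb2) and 0.80 ± 0.13 (Pcdhb6), beside 0.707% of all genes called.

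Pcdhb1, whose promoter lacks the conserved element found in most others of the family, had 0, 5, 3, 3 and 5 counts in the 5mEE libraries and 11, 8, 9, 6 and 12 in the 24mEE libraries. Its log2 difference was 1.66 ± 0.47 (adjusted p = 0.435), the largest of the cluster, and it rests on these few counts. Pcdhb3, the gene next to Pcdhb2, was at 6.53 to 8.27 CPM (median 7.11) in 5mEE and 8.84 to 12.96 CPM (median 11.7) in 24mEE. Pcdhb5 was at 5.20 to 6.12 CPM in 5mEE and 6.28 to 9.24 CPM in 24mEE, with a log2 difference of 0.39 ± 0.12 (adjusted p = 0.577). For Pcdhb4, Pcdhb7 and Pcdhb8 the log2 differences were 0.49 ± 0.17, 0.40 ± 0.13 and 0.59 ± 0.17.

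At the other end of the cluster, the differences were smaller. Pcdhb17, the beta gene with the most counts, was at 18.4, 18.9, 19.4, 19.0 and 19.4 CPM in 5mEE and at 19.5, 20.0, 22.6, 18.1 and 18.3 CPM in 24mEE. Its log2 difference was 0.05 ± 0.10, with a 95% interval of -0.15 to 0.25, so a difference of the size seen in Pcdhb9 lay outside it. Pcdhb20 had a log2 difference of 0.12 ± 0.09, and Pcdhb15, the lowest of the cluster, one of -0.08 ± 0.15. Beta genes differ in their extracellular recognition domains, and no separate function is established for most of them.

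**Figure D3:**
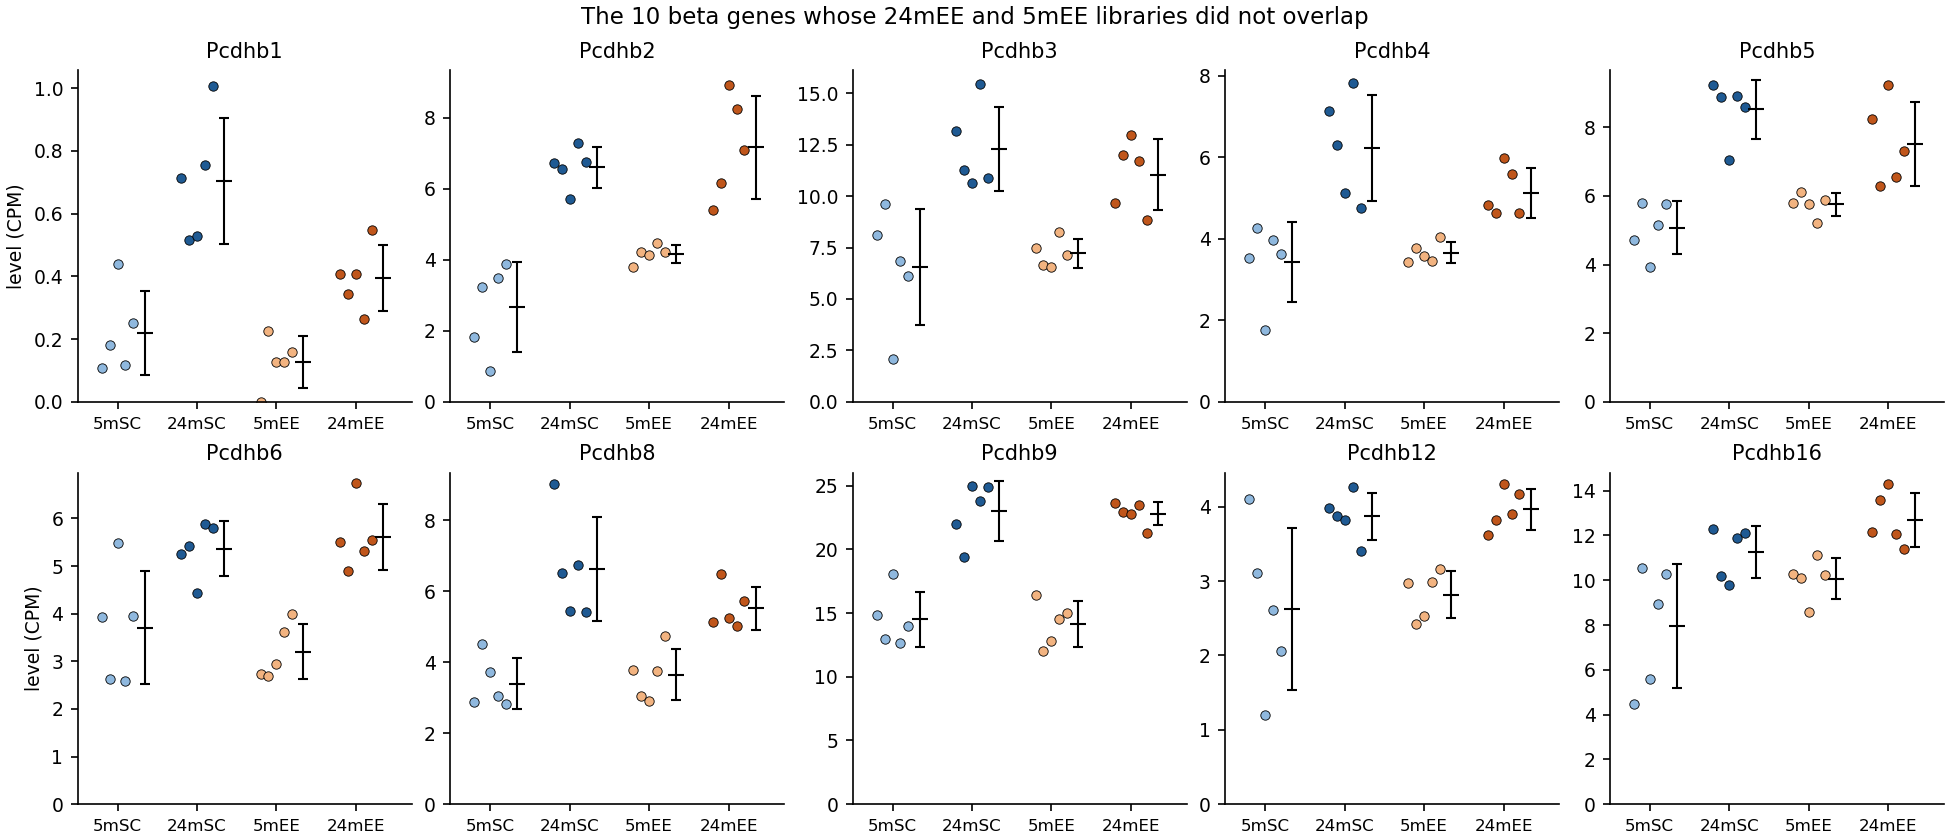
Level (CPM) of the 10 beta genes whose 24mEE libraries all stood above the 5mEE libraries, 1 point per library with group mean ± SD, for all 4 groups. Pcdhb9 shows the tightest 24mEE group (21.3 to 23.6 CPM) relative to its distance from 5mEE (12.01 to 16.4 CPM), and the 5mSC group is the most spread in Pcdhb3, Pcdhb6, Pcdhb12 and Pcdhb16.

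The size of the age difference followed the position of a gene in the beta cluster. From Pcdhb1 to Pcdhb9, the end nearer to the alpha cluster, 9 of 9 genes had a positive log2 fold change with unadjusted p under 0.05 (median 0.61, range 0.39 to 1.66), and in 8 of them the libraries did not overlap. From Pcdhb10 to Pcdhb22, 11 of 13 were positive, 2 had p under 0.05 and 2 did not overlap (median 0.16, range -0.08 to 0.49). Of all genes, 2.71% were higher with an unadjusted p under 0.05, and 1.63% were higher without overlap. The split after Pcdhb9 was set after these values were seen, so the counts on its 2 sides are a description. Spearman's rho between order in the cluster and log2 fold change was -0.79 over the 22 genes, which all come from the same libraries. For exon length it was -0.38, and for the share of words found elsewhere 0.06. In the gamma cluster rho with order was -0.23 (20 genes) and in the alpha cluster -0.43 (12 genes).

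Of 16 tested genes around and between the clusters, 0 were called between 24mEE and 5mEE and 0 had an unadjusted p under 0.05, with log2 differences from -0.53 to 0.74. Taf7, a general transcription factor gene that lies between the beta and gamma clusters, had a log2 difference of -0.09 ± 0.10 between the ages. Hars, a tRNA synthetase gene before the alpha cluster, had one of 0.00 ± 0.09. Beyond the gamma cluster, the actin regulator Diaph1 had one of 0.08 ± 0.10 and the histone deacetylase Hdac3 one of 0.06 ± 0.07. The noncoding RNA gene 3222401L13Rik, between the beta and gamma clusters, had one of 0.34 ± 0.22. These 5 were named for their place on the chromosome after their values were seen.

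In the gamma cluster the differences between 24mEE and 5mEE went both ways. Pcdhga6 was at 13.1, 9.85, 12.2, 11.6 and 11.2 CPM in 5mEE and at 13.998, 16.4, 13.8, 14.8 and 16.1 CPM in 24mEE, a log2 difference of 0.37 ± 0.12 (adjusted p = 0.577). Pcdhga2 was at 13.6, 9.67, 14.8, 11.3 and 15.9 CPM in 5mEE and at 20.2, 14.3, 23.8, 19.0 and 22.5 CPM in 24mEE, a log2 difference of 0.61 ± 0.20 (adjusted p = 0.615). Only the first of these was free of overlap. Pcdhga3 had a log2 difference of 0.46 ± 0.17 and Pcdhga1 one of 0.35 ± 0.19.

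Pcdhgb2 had the most negative value, -0.48 ± 0.22, with 6.82, 5.22, 7.84, 6.35 and 7.71 CPM in 5mEE and 4.95, 5.03, 3.44, 3.94 and 6.91 CPM in 24mEE, which overlap. Pcdhga4 had a log2 difference of -0.40 ± 0.19, Pcdhgb1 one of -0.33 ± 0.19 and Pcdhgb5 one of 0.15 ± 0.20. None of the 20 gamma genes passed after adjustment, the smallest adjusted p being 0.577.

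None of the C-type genes, which most neurons use, passed the adjusted threshold between the ages in enriched cages. Pcdhgc5, with the most counts of the family, was at 115, 88.8, 109, 85.8 and 104 CPM in 5mEE and at 98.0, 82.1, 117, 92.9 and 119 CPM in 24mEE. Its log2 difference was 0.02 ± 0.18 with a 95% interval of -0.36 to 0.40. Pcdhgc3 was at 30.6 to 33.7 CPM and 28.7 to 30.6 CPM (-0.13 ± 0.16), and Pcdhgc4, the isoform that interneurons need to survive, at 8.32 to 11.4 CPM and 6.78 to 10.3 CPM (-0.14 ± 0.15). In edgeR without the 5mSC group the value of Pcdhgc3 was -0.13 ± 0.04, with an unadjusted p of 0.00971 and an adjusted p of 0.226. Pcdhac2 was at 36.9, 34.8, 40.3, 29.7 and 31.4 CPM in 5mEE and at 35.2, 29.0, 33.5, 31.9 and 36.4 CPM in 24mEE, a log2 difference of -0.06 ± 0.23 (95% interval -0.54 to 0.42). For Pcdhac1 the log2 difference was -0.02 ± 0.24.

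Among the variable alpha genes the largest and smallest log2 differences were 0.42 ± 0.28 for Pcdha1 and -0.25 ± 0.23 for Pcdha5. Pcdha1 was at 0.764 to 1.69 CPM in 5mEE and 1.15 to 1.77 CPM in 24mEE. Pcdha5 was at 2.60 to 4.27 CPM in 5mEE and 2.21 to 3.39 CPM in 24mEE. Both pairs overlapped. Pcdha12 and Pcdha9, the variable alpha genes with the highest levels per kilobase, had log2 differences of -0.11 ± 0.16 and -0.08 ± 0.17. No alpha gene had an unadjusted p under 0.05.

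**Figure D4:**
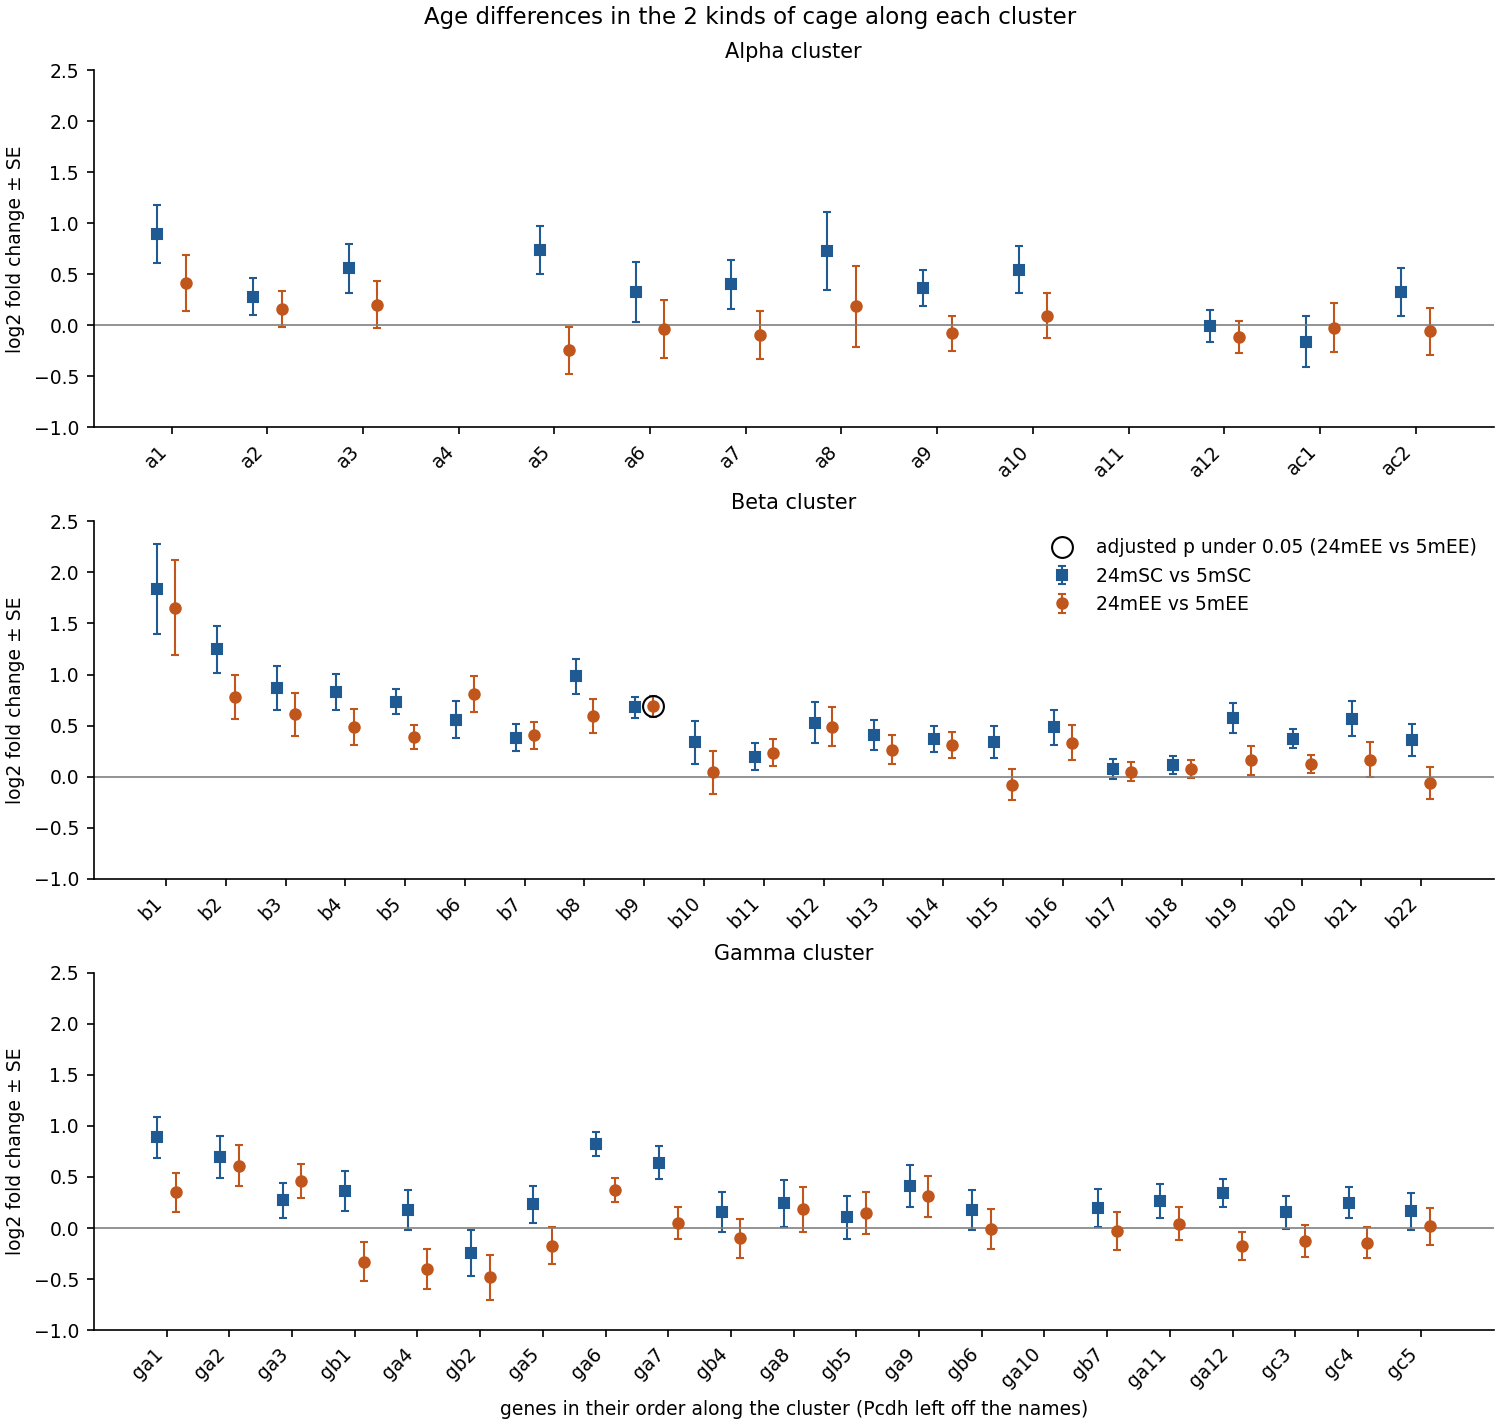
Log2 fold change ± SE from 5 to 24 months for each gene in its order along the cluster, in standard cages (blue squares) and in enriched cages (orange circles), with a black outline where the adjusted p in enriched cages was under 0.05. In the beta cluster, values run from 1.66 at Pcdhb1 to -0.06 at Pcdhb22 in enriched cages, and the 1 outlined circle is Pcdhb9. Gaps mark the 3 genes that were not tested.

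The same ages in standard cages were the comparison from which the family was chosen, so the signs, sizes and counts below restate that choice and carry no test of it. Of the 54 genes, 7 were past the adjusted threshold as higher at 24 months and 0 as lower, where 0.467% of all genes were called higher and 0.335% lower. The group held Pcdhb2 (log2 difference 1.25), Pcdhb4 (0.83), Pcdhb5 (0.73), Pcdhb8 (0.98), Pcdhb9 (0.68), Pcdhga1 (0.89) and Pcdhga6 (0.82). Without the 5mSC replicates 1 and 3 their log2 differences were 0.88, 0.65, 0.61, 0.97, 0.80, 0.72 and 0.66. A positive log2 fold change was found for 51 of 54 genes, beside 48% of all genes, and for 41 of 54 without both replicates. The old libraries all stood above the young ones in 11 genes, beside 1.68% of all genes.

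Pcdhb9 was at 14.9, 12.98, 18.1, 12.7 and 13.96 CPM in 5mSC and at 22.02, 19.4, 24.99, 23.8 and 24.9 CPM in 24mSC, a 1.60-fold difference. Pcdhb2 was at 1.84, 3.23, 0.877, 3.50 and 3.88 CPM in 5mSC and at 6.73, 6.56, 5.70, 7.29 and 6.76 CPM in 24mSC. Pcdhga1 was at 3.53, 5.12, 2.08, 4.95 and 2.66 CPM in 5mSC and at 6.88, 5.99, 5.98, 6.91 and 8.77 CPM in 24mSC. None of the 3 overlapped between the ages, and in Pcdhb2 and Pcdhga1 the 5mSC replicate 3 was the lowest library of all.

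The alpha and gamma differences in standard cages depended on 2 libraries. The medians of 0.38 (alpha), 0.51 (beta) and 0.24 (gamma) became 0.13, 0.38 and 0.03 without the 5mSC replicates 1 and 3. In that fit 10 genes changed sign, among them the C-type genes Pcdhac2 (0.33 to -0.08), Pcdhgc5 (0.16 to -0.12) and Pcdhgc3 (0.15 to -0.14). Pcdhac1 went from -0.16 to -0.54 and was called lower there, beside 2.14% of all genes called in either direction.

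Several marker lists also differed between the ages in standard cages. The marker genes of neocortex, a region next to the hippocampus, summed to 261 to 395 CPM in 5mSC and to 361 to 419 CPM in 24mSC. All 8 microglia markers had positive values (median 0.22), with sums of 238 to 423 CPM in 5mSC and 426 to 489 CPM in 24mSC, and 1 was called, the chemokine receptor Cx3cr1. All 8 fibroblast markers had negative values (median -0.61, 6 with an unadjusted p under 0.05 and 0 called), with sums of 70.8 to 173 CPM and 53.3 to 118 CPM. The choroid plexus markers had a median of -0.67, with sums of 38.7 to 397 CPM and 41.0 to 87.2 CPM. By mean log2 level, the 5mSC replicate 3 was the lowest library in microglia markers and the highest in choroid plexus and fibroblast markers. The lists were not recomputed without it. With the neocortex mean as a covariate the log2 difference of Pcdhb9 was 0.80, and with the striatum mean it was 0.77. The 24mEE and 5mEE libraries had neocortex sums of 281 to 380 CPM and 274 to 366 CPM, which cover much the same range. The part of any of these marker lists in the standard-cage differences was not tested.

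The age comparisons of the 2 kinds of cage share no library, and their values can be set side by side. Of the 22 beta genes, 20 were higher at 24 months in both, 0 were lower in both, and Spearman's rho between the log2 fold changes was 0.80. Over all 54 genes, 35 were higher in both, 3 lower in both and 16 opposite (rho 0.66), beside a rho of 0.13 and 54.5% of equal sign over all genes tested. The order along the beta cluster was seen in standard cages too, with a rho of -0.64 and medians of 0.83 from Pcdhb1 to Pcdhb9 and 0.37 from Pcdhb10 to Pcdhb22. The correlation across genes is a description, since genes of 1 set of libraries are not independent.

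Whether the age difference itself differed between cages was read from the interaction of age and environment. It subtracts the standard-cage difference on which the family was chosen, so its sign is tied to that choice and the values are a description. No protocadherin gene was called by edgeR (0 of 54, and 0% of all genes), and DESeq2 and limma-voom also called 0 of the 54. A negative value, that is a lower signed log2 fold change with age in enriched than in standard cages, was found for 47 of 54 genes. Without the 5mSC replicates 1 and 3 it was found for 32 of 54. An unadjusted p under 0.05 was found for 6 negative and 0 positive values, beside 3.61% and 4.4% of all genes, and for 3 and 1 without both replicates. For Pcdha5 the interaction was -0.98 ± 0.33 (adjusted p = 0.621), for Pcdhgb1 -0.70 ± 0.28 and for Pcdhga6 -0.45 ± 0.17. Without both replicates these became -0.63 ± 0.22, -0.45 ± 0.23 and -0.29 ± 0.12. For Pcdhb9 the interaction was 0.01 ± 0.14 with a 95% interval of -0.29 to 0.30, and -0.11 ± 0.13 without both replicates.

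Enrichment in old mice was compared between 24mEE and 24mSC, which share groups with the age comparisons above, and the 24mSC libraries also entered the choice of the family. No gene of the clusters passed with edgeR (0 of 54), and 0% of all genes did. DESeq2 and limma-voom likewise called 0 of the 54, although they called 31 and 379 of all genes. Before adjustment 0 genes were higher and 2 lower with p under 0.05, where 2.22% and 3.99% of all genes were. The median log2 fold changes were 0.00 for alpha, -0.01 for beta and 0.07 for gamma.

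The pair with p under 0.05 was Pcdha8 (-0.88 ± 0.38) and Pcdhb1 (-0.83 ± 0.39), both at or below 1.30 CPM in every library of these groups. Pcdhac1 was the 1 gene whose groups did not overlap, with 3.92, 3.78, 4.08, 3.23 and 3.43 CPM in 24mEE and 3.01, 2.53, 2.73, 3.02 and 2.97 CPM in 24mSC (log2 difference 0.37 ± 0.25, adjusted p = 0.995). Among all genes 1.5% were separated as higher and 1.93% as lower, and among the 54 it was 1 and 0. The largest values of the other clusters were 0.23 ± 0.13 for Pcdhb7 and 0.30 ± 0.17 for Pcdhga3, and the smallest gamma value was -0.17 ± 0.20 for Pcdhga4. Pcdhb9 differed by -0.01 ± 0.10 with a 95% interval of -0.22 to 0.19, and the size of its difference between the ages lay outside that interval.

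Enrichment in young mice was compared between 5mEE and 5mSC. No gene of the clusters passed (0 of 54, and 0% of all genes), with edgeR, limma-voom and DESeq2 alike, the last of which called 31 of all genes. The 5mSC libraries entered the choice of the family, which favoured genes that were low in them, so the directions here are a description. Before adjustment 13 of the 54 genes had p under 0.05 and a higher level in 5mEE, and 0 a lower one, beside 6.52% and 10% of all genes, and without the 5mSC replicates 1 and 3 these were 6 and 0. A positive difference was found for 49 of 54, beside 46.1% of all genes, and in 2, Pcdha10 and Pcdhga7, the groups did not overlap, beside 0.743% of all genes.

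These differences moved with the doubtful libraries. The medians of 0.36 (alpha), 0.11 (beta) and 0.35 (gamma) became 0.05, 0.08 and 0.09 without the 5mSC replicates 1 and 3, and positive values fell in number to 39 of 54. Pcdha5 had the largest alpha value, 0.77 ± 0.23, with 3.38, 4.27, 3.50, 2.60 and 2.78 CPM in 5mEE and 1.22, 2.56, 0.767, 2.76 and 2.07 CPM in 5mSC. Its lowest values are those of the replicates 1 and 3, without which the difference was 0.42 ± 0.17. The largest beta and gamma values were 0.58 ± 0.23 for Pcdhb2 and 0.71 ± 0.19 for Pcdhgb1, and without both replicates they were 0.22 ± 0.15 and 0.47 ± 0.17. The smallest were -0.65 ± 0.52 for Pcdhb1, 0.06 ± 0.21 for Pcdhgb5 and, in the alpha cluster, -0.34 ± 0.40 for Pcdha8. Without both replicates these became -0.60, -0.16 and -0.58. Pcdhb9 differed by -0.02 ± 0.10, and by 0.10 ± 0.10 without them.

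The other genes of the pathway held no calls between 24mEE and 5mEE with edgeR, and none had an unadjusted p under 0.05. Of the 12 non-clustered protocadherins, which are related adhesion proteins from single genes elsewhere in the genome, 0 were called, 11 had a negative value and the median was -0.12. The smallest p belonged to Pcdh12, an endothelial member (-0.93 ± 0.53), and Pcdh17, which acts at synapses (-0.20 ± 0.12). Of 24 genes for chromatin and promoter choice, such as CTCF, cohesin, DNA methyltransferases and the silencers Smchd1 and Setdb1, 0 were called and the median was -0.02. Smchd1 had a log2 difference of -0.12 ± 0.09 and Dnmt1 one of -0.09 ± 0.08. Of 24 signalling and processing partners, 0 were called and the median was -0.03, with Ret, a receptor that binds these proteins, at -0.42 ± 0.21 and Marcks, a target in dendrite growth, at -0.19 ± 0.10.

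In standard cages these 3 lists also held 0 calls. An unadjusted p under 0.05 was found for 3 genes higher and 0 lower of the non-clustered protocadherins. For the chromatin genes it was 3 and 2, and for the partners 1 and 1. Of all genes, 8.72% were higher and 11.7% lower at that threshold. The smallest p belonged to Pcdh7 (0.49 ± 0.14) and Pcdh10 (0.37 ± 0.12) among the non-clustered genes, to Setdb1 (-0.25 ± 0.08) and Rest (-1.46 ± 0.53) among the chromatin genes, and to Pdcd10 (-0.51 ± 0.22) and Gsk3b (0.22 ± 0.10) among the partners. All 6 had adjusted p above 0.05.

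Markers of cell types and neighbouring regions give the makeup of the libraries in which the beta genes were higher. Between 24mEE and 5mEE the medians were -0.09 for 10 pan-neuronal markers, with 8 negative and sums of 8736 to 9668 CPM in 5mEE and 8429 to 9203 CPM in 24mEE. They were -0.05 for dentate gyrus, -0.02 for neocortex, 0.01 for striatum, -0.04 for interneurons, -0.01 for astrocytes, 0.02 for oligodendrocytes, -0.02 for endothelial cells and -0.29 for fibroblasts. Of these lists 0 genes were called, and unadjusted p under 0.05 were found for 3 astrocyte and 2 fibroblast markers. Among the markers of oligodendrocyte precursors (median -0.15) 1 of 8 was called, Gpr17, which was lower (-1.05 ± 0.13, adjusted p = 0.000362).

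All 8 microglia markers had positive values (median 0.16), with sums of 368 to 432 CPM in 5mEE and 379 to 464 CPM in 24mEE, and 0 were called (2 before adjustment). The 10 tested markers of choroid plexus, the secretory tissue of the ventricles, all had negative values (median -0.68), with sums of 52.2 to 151 CPM in 5mEE and 39.0 to 88.8 CPM in 24mEE, and 0 were called (1 before adjustment). No list had a marker at 0 in all libraries. Pcdhb9 remained past the threshold with choroid plexus, neocortex, striatum or pan-neuronal markers as a covariate. These fits are given for that 1 gene, and the part of any of the lists in the beta difference was not tested.

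Across fits, the number of protocadherin genes past the threshold in enriched cages ranged from 1 to 7 over 32 alternatives, and the share of all genes called differed between fits too. The count of 7 came with limma-voom, which gives low weight to the doubtful libraries and called 0.971% of all genes. With the neocortex or striatum covariate 1 gene was past it, beside 0.0839% and 0.0899% of all genes. Alpha genes supplied 0 calls in each of these fits.

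**Figure D5:**
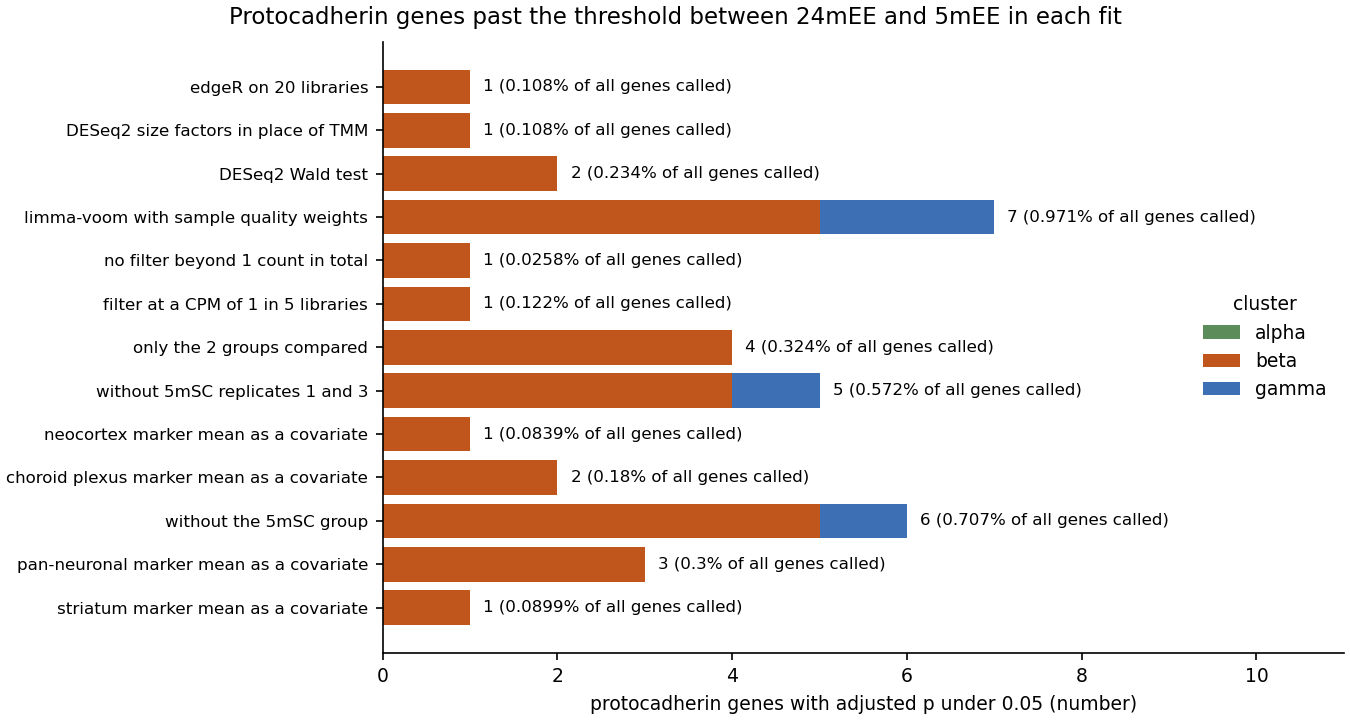
Number of clustered protocadherin genes with adjusted p under 0.05 between 24mEE and 5mEE in each fit, coloured by cluster, with the percentage of all genes called in brackets. Bars run from 1 gene (0.108% of all genes called with edgeR on 20 libraries) to 7 genes (0.971% with limma-voom), and the calls are beta genes apart from 1 or 2 gamma genes in 3 of the fits.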

How the data were processed

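RNA-seq of 20 hippocampal libraries was used. Per the labels and methods, the TruSeq RNA v2 kit, which does not mark strand, was used, with single reads of 50 bases. The deposited values are raw counts of reads for each Ensembl identifier. The submitters' processing notes name bcl2fastq (1.8.2), STAR (2.4.1d) and, for counting, featureCounts (1.4.6-p4), with GRCm38 as the genome. How featureCounts treated reads that overlap several genes is not given in the sources used here. The deposited RPKM values were not used. The study's own analysis used another alignment and more libraries. Symbols and exons came from the GRCm38 annotation (99.1% of identifiers matched). The gene named Pcdha10 carries another name, Pcdha11, in 1 annotation and was named by its place.

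The analysis ran in R 4.3.3. In edgeR 4.0.16, filterByExpr (least count 10, least total 15) kept 16692 genes, TMM scaled the libraries, and all 20 entered 1 quasi-likelihood fit of group means without further terms. The common biological coefficient of variation was 17.4%. Comparisons were contrasts, with Benjamini-Hochberg adjustment over all genes, and 0.05 was the threshold of the adjusted p. Levels are CPM on the TMM scale. Groups came from the labels. Replicate numbers follow the order of deposition and pair no samples. No sequencing run is in the labels, so none was fitted. No pair of libraries agreed within sampling noise (smallest chi-square per degree of freedom 3.71). The scripts were tested on simulated data.

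The family and the gene lists were chosen with earlier results of these data known. Named by rule were, per cluster, the genes called in 24mEE against 5mEE, the C-type genes, the 3 highest levels per kilobase of own exon, and the largest and smallest log2 fold change of each comparison. For other lists up to 4 passing genes by p were named, or the 2 with the smallest p. Other named genes (the 10 beta genes without overlap, Pcdhga6, the genes past the threshold in standard cages, in the interaction or in an alternative, the pair without overlap in young mice, and the neighbouring genes) and the split after Pcdhb9 were chosen after their values were seen. Alternatives were DESeq2 1.42.0 size factors and its Wald test, limma 3.58.1 voom with quality weights, other filters, only the groups compared, each library left out, the 5mSC replicates 1 and 3 left out, and marker means as covariates. No sequence is printed.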

Additional observations from a re-analysis of the deposited data

Results flagged for a closer look

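Within groups of 5 libraries, the gap between the most extreme library and its nearest neighbour, relative to the range of the group, was checked for the cluster sums, the shares within clusters and the genes named by rule against Dixon's critical value of 0.71. Of 124 groups checked, 4 passed it (3.23%), where chance gives about 1 in 20. The beta sum of the 24mEE replicate 3 was 213 CPM, against 186 to 190 CPM in the other 24mEE libraries. Pcdha1 was at 1.69 CPM in the 5mEE replicate 3, against 0.764 to 0.990 CPM. Pcdha8 was at 1.16 CPM in the 5mSC replicate 2, against 0.252 to 0.504 CPM. Pcdhga3 was at 12.1 CPM in the 5mEE replicate 2, against 14.9 to 15.9 CPM.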

How the results depend on the processing

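No gene past the threshold in either fit changed sign. Among all log2 fold changes of the clustered genes recomputed under the alternatives, the sign changed in 45 of 1725 for 24mEE against 5mEE, 41 of 1672 for 24mSC against 5mSC, 94 of 1726 for 24mEE against 24mSC, 67 of 1671 for 5mEE against 5mSC and 123 of 1618 for the interaction, and medians near 0 crossed it in 12 of 128 for 24mEE against 5mEE and 17 of 128 for 24mEE against 24mSC. The number of genes called in 24mEE against 5mEE, 1 in the main fit (1 beta), became 2 with the DESeq2 Wald test (2 beta), 7 with limma-voom (5 beta, 2 gamma), 4 with only the 2 groups compared (4 beta), 5 without the 5mSC replicates 1 and 3 (4 beta, 1 gamma) and 2 with the choroid plexus covariate (2 beta). Of all genes, the main fit called 0.108%, the DESeq2 Wald test 0.234% and limma-voom 0.971%. The fit of only the 2 groups called 0.324%, the fit without both replicates 0.572% and the choroid plexus covariate 0.18%. Leaving out 1 library gave 1 to 3 (beta 1 to 3), the 3 coming without the 5mSC replicate 3, where 0.269% of all genes were called. Chosen after seeing the data, a fit without the 5mSC group gave 6 (5 beta, 1 gamma) and a pan-neuronal covariate gave 3 (3 beta), beside 0.707% and 0.3% of all genes. For 24mSC against 5mSC, where counts restate how the family was chosen, 7 in the main fit (5 beta, 2 gamma) became 16 with the DESeq2 Wald test (1 alpha, 11 beta, 4 gamma), 0 with only the 2 groups compared (0 beta, 0 gamma), 11 without the 5mSC replicates 1 and 3 (1 alpha, 9 beta, 1 gamma), 1 with the neocortex covariate (1 beta, 0 gamma) and 11 with the choroid plexus covariate (8 beta). The alpha gene called without the 5mSC replicates 1 and 3 was Pcdhac1, which was lower at 24 months, and that fit called 2.14% of all genes. With limma-voom 9 beta and 1 gamma genes were called, and without a filter 1 gamma gene, beside 1.83% and 0.169% of all genes. The choroid plexus covariate called 1.47% of all genes. Leaving out 1 library gave 5 to 16 (alpha 0 to 2, beta 4 to 11, gamma 1 to 3), with 16 without the 5mSC replicate 2 and 12 without the 5mSC replicate 3. Calls among all genes moved too, from 0.803% in the main fit to 4.55% with DESeq2, 6.67% and 3.58% without the 5mSC replicates 2 and 3, 0.0719% and 0.012% with the neocortex and striatum covariates and 0.019% with only the 2 groups, where the 7 genes kept log2 differences of 0.66 to 1.26 and Pcdhb9 had an adjusted p of 0.16. Chosen after seeing the data, the pan-neuronal covariate gave 11 (8 beta) and the striatum covariate 0 (0 beta, 0 gamma), beside 2.55% and 0.012% of all genes. The alpha median of 5mEE against 5mSC became 0.05 without the 5mSC replicates 1 and 3, and 503 of the 504 medians recomputed under alternatives moved by less than the spread between replicates. That spread (log2 SD 0.30 for alpha, 0.13 for beta and 0.27 for gamma) includes the 5mSC replicates 1 and 3. It is thus a wide yardstick, and the count does not show that the medians were stable. In 24mEE against 24mSC, 5mEE against 5mSC and the interaction 0 genes were called in all of 32, 31 and 30 alternatives. Without a filter the median of all genes in 24mSC against 5mSC moved to -0.13. The causes of these changes were not tested.

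No paired analysis was possible because the labels give no replicate numbers that the groups share. Reads in constant exons cannot be credited to a gene, 3 counts were worth 0.0882 to 0.329 CPM per library, and differences in genes as low as Pcdhb1 or Pcdha8 rest on few counts.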
